A study of Mus musculus with 2 samples.

Results

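Messenger RNA levels of the respiratory chain, ATP synthase and ubiquinone synthesis genes were compared between Miz-1 knockout and wild-type DN3 thymocytes. Genes were taken by name alone: every probe set annotated with a single gene symbol beginning Nduf, Sdhaf, Uqcr, Uqcc, Atp5, Coq or Pdss with its suffix, Cox with a number, or equal to Sdha, Sdhb, Sdhc or Sdhd. This gave 231 probe sets for 117 genes, out of 34945 probe sets with 1 symbol for 18193 genes. No measured value entered the choice of a gene, although the set was proposed with earlier results of these arrays known.

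RNA came from thymocytes sorted as negative for lineage markers and CD44 and positive for CD25, the phenotype of the DN3 stage at which thymocytes rearrange the gene of the T cell receptor beta chain. The knockout array carries RNA of Miz-1 knockout mice, in which Miz-1, a zinc finger transcription factor encoded by Zbtb17, lacks its POZ domain. The wild-type array carries RNA of mice without that change, and both groups have the C57BL/6 background. Neither group is labelled with a treatment or an age, and the sources used here do not give how the deletion was driven or whether animals were pooled. The study asks how loss of Miz-1 activity alters gene expression in DN3 cells. There was 1 array per genotype, so no difference below has a replicate check and none was tested. Zbtb17 itself read 1361 in knockout and 3042 in wild-type cells, 2.23-fold lower by its only measured probe set. Whether that probe set covers the deleted part was not examined, so it is a limited check of the labels.

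The respiratory chain is a series of protein complexes in the inner mitochondrial membrane. Complexes I and II pass electrons from NADH and succinate to ubiquinone, complex III passes them on to cytochrome c, and complex IV hands them to oxygen. Complexes I, III and IV pump protons, and ATP synthase, also called complex V, uses the proton gradient to make ATP. Most subunits are encoded in the nucleus, and assembly factors bring in the metal centres and join the subunits without staying in the finished enzyme. Proliferating lymphocytes need the chain both for ATP and to reoxidise the cofactors used in making nucleotides and aspartate.

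Each gene was read by its brightest probe set. Signals below a floor of 394, the median of all values on both arrays, were raised to it before the log2 ratio of knockout over wild type was taken. A gene is called measured if its mean signal lay above the floor. A difference is counted at 2-fold, a log2 ratio of 1 in size, and "at least" marks a fold whose dimmer signal had been raised to the floor. Of the 117 genes, 112 were measured. The 5 below the floor were Cox7a1, Cox7b2, Cox8b, Ndufaf5 and Ndufb4. Another 11 probe sets carried several symbols of which at least 1 fits the naming rule, and they were not used.

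The genes of the set lay mostly below their wild-type signal in the knockout, most of them by less than 2-fold. Of the 112 measured genes, 91 (81.3%) had a negative log2 ratio, and the median was -0.44 with quartiles of -0.67 and -0.14. Over all 10770 measured genes, 5384 were negative and the median was 0.00021. Few genes of the set passed 2-fold: 10 were lower in the knockout (8.93%, against 5.65% of all measured genes) and 2 were higher (1.79%, against 7.23%). The shift thus appeared in the middle of the distribution. The share past 2-fold was above that of all genes on the lower side and below it on the higher side. Both shares rest on few genes (10 and 2). Where a gene had several measured probe sets, the SD of their log2 ratios, pooled as a root mean square over 54 genes of the set, was 0.57. A typical single ratio here is therefore smaller than the spread between probe sets of 1 gene.

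**Figure D1:**
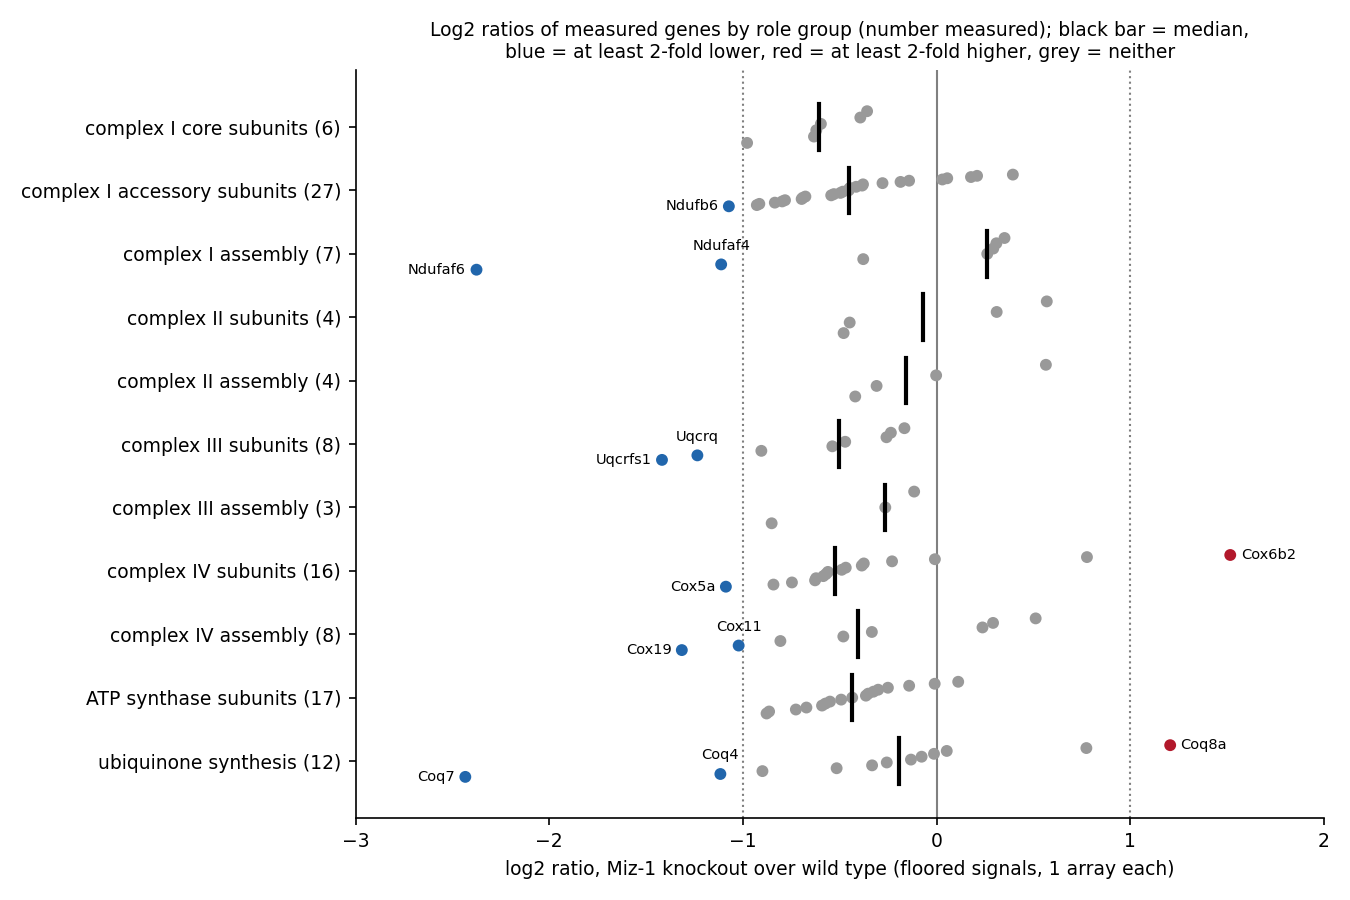
Log2 ratio of knockout over wild type (horizontal axis) for each measured gene (dots), grouped by role, with the group median as a black bar and dotted lines at 2-fold. Medians of the subunit groups of complexes I, III and IV and of ATP synthase lie between -0.61 and -0.44, and the genes past 2-fold (blue lower, red higher) are named.

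Brightness moved with this result. Over all measured genes the median ratio fell with signal in the deposited values, and many genes of the set are bright. Among all 1240 measured genes with a mean signal of at least 16 times the floor, the median log2 ratio was -0.32 and 69.7% were negative. The 56 genes of the set in that range had a median of -0.55, and 54 of them were negative. At 64 times the floor the medians were -0.53 over 224 genes and -0.67 over the 19 of the set. After loess normalization, which removes a trend with signal, the median of the set was -0.24 against -0.031 over all measured genes, and 84 of 112 were negative against 51.8% of all genes. Quantile normalization gave -0.27 against -0.040. The median of the set minus that of all genes was thus -0.44 as deposited, -0.23 after quantile and -0.21 after loess normalization. Counts past 2-fold changed little: 9 genes were lower after quantile and 8 after loess normalization (6.43% and 6.36% of all genes), and 2 were higher in each (6.22% and 6.32% of all genes). Among the 88 genes of at least 4 times the floor, 6 were lower and 1 higher, against 5.38% and 4.55% of all genes that bright. Whether the brightness trend is technical was not tested.

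**Figure D2:**
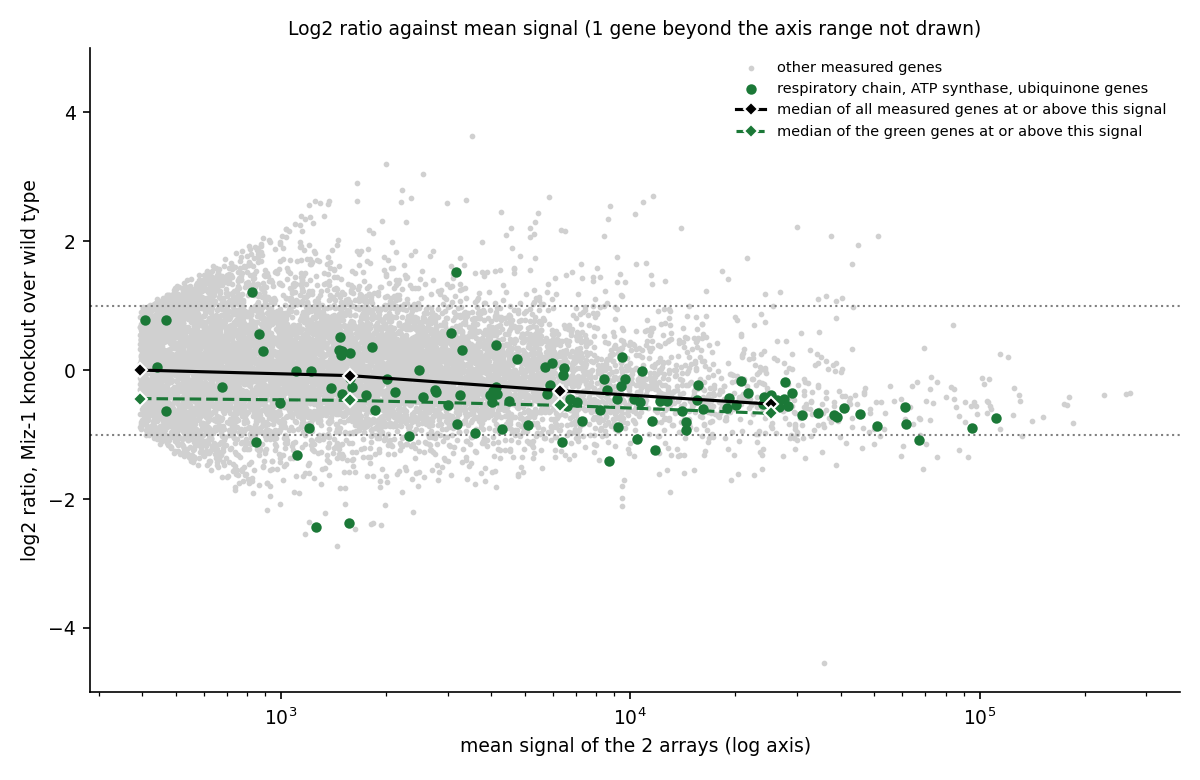
Log2 ratio (vertical axis) against mean signal on a log axis for all measured genes (grey) and the genes of the set (green), with diamonds for the median of the genes at or above each of 4 signal limits. Both lines of medians fall with signal, from 0.00021 to -0.53 for all genes and from -0.44 to -0.67 for the set.

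Complex I is the entry point for electrons from NADH. All 6 measured core subunits, those that carry the flavin and iron-sulfur clusters or form the ubiquinone site, had negative ratios, with a median log2 ratio of -0.61. After quantile or loess normalization 5 of the 6 were negative, with medians of -0.38 and -0.35. Ndufs3, a subunit next to the ubiquinone site, stayed just short of 2-fold, with 2422 in knockout and 4771 in wild-type cells (log2 ratio -0.98). Ndufv1, which binds NADH, read 6438 and 9900.3, a log2 ratio of -0.62. Its cluster-bearing partner Ndufv2 read 11031 and 17104, at -0.63. Ndufs1, the largest core subunit, and Ndufs7, which carries the last cluster before ubiquinone, were at -0.39 and -0.60. The other Ndufs7 probe set was at -0.044. The 3 probe sets of Ndufv1 ranged from -0.79 to -0.17 and the 3 of Ndufv2 from -1.33 to -0.47. Probe sets disagreed in direction for Ndufs8, a cluster-bearing subunit: its brightest was at -0.36 and its 6 measured probe sets ranged from -0.56 to 0.78. The core median was -0.17 over 5 genes once probe sets of shared sequence were left out.

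Accessory subunits surround that core and stabilise it. Of 27 measured, 22 had negative ratios, with a median log2 ratio of -0.45, and 1 was past 2-fold. This was Ndufb6, of the membrane arm, which read 6737 in knockout and 14168 in wild-type cells, 2.10-fold lower. Its second probe set gave 4909 and 6155, a log2 ratio of -0.33, so the size rests on 1 probe set. Ndufab1, which is also the acyl carrier protein of mitochondrial fatty acid synthesis, read 9953 and 18937 (log2 ratio -0.93). Its next brightest probe set was at -1.36, but a dim one read 875 and 414, at 1.08, in the opposite direction. Ndufb10, a membrane arm subunit, was at -0.92 with 2975 and 5611. Ndufa12, the brightest of the group, read 34974 and 55925 (-0.68). At the other end of the group stood Ndufa3, with 4688 and 3567 and a log2 ratio of 0.39, although its other measured probe set was at -0.66. The X-linked genes Ndufa1 and Ndufb11 were at -0.53 and -0.70, inside the range of the autosomal genes.

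The assembly factors of complex I were split. Of 7 measured, 2 were more than 2-fold lower and 4 had positive ratios between 0.26 and 0.35, so the median log2 ratio, 0.26, describes neither side. Ndufaf6, a factor of early assembly related to phytoene synthases, read 506 in knockout and 2628 in wild-type cells, 5.19-fold lower. It was read by 1 probe set. Ndufaf4, which acts early in building the arm near the ubiquinone site, read 4023 and 8697, 2.16-fold lower, while its second probe set read 1108 and 1002, a log2 ratio of 0.14. Its partner Ndufaf3 read 2044 and 1603, at 0.35. The late-acting chaperone Ndufaf2, the factor Ndufaf1 and the methyltransferase Ndufaf7 were at 0.29, 0.26 and 0.31. Ndufaf8, the partner of Ndufaf5, was at -0.38.

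Complex II had no settled direction. It links the citric acid cycle to the chain, and its catalytic and membrane parts read in opposite directions by their brightest probe sets. Sdha, the flavoprotein that oxidises succinate, read 8652 in knockout and 11805 in wild-type cells (log2 ratio -0.45), and the iron-sulfur subunit Sdhb read 10179 and 14195 (-0.48). The membrane anchor genes Sdhc and Sdhd read 3653 against 2462 and 3651 against 2943, at 0.57 and 0.31. The second probe set of each anchor gene contradicted this, with 1442 against 2811 for Sdhc (-0.96) and 827 against 2018 for Sdhd (-1.29). The direction of the anchors therefore cannot be stated, and the median of the 4 subunits, -0.069, was 0.035 and 0.054 under quantile and loess normalization. It was -0.24 with the mean of probe sets and -0.45 over the 3 genes with a probe set not marked for shared sequence. Among the 4 complex II assembly factors, Sdhaf1, which helps to load clusters into Sdhb, was lowest at -0.42. Sdhaf4, which protects free Sdha, was at -0.31 and Sdhaf2, which attaches the flavin, at -0.0019. Sdhaf3 was highest at 0.56, with 1031 in knockout and 697 in wild-type cells.

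All 8 measured subunits of complex III were below the wild type in the deposited values, with a median log2 ratio of -0.50. After quantile or loess normalization 7 were, with medians of -0.31 and -0.26. Uqcrfs1, the Rieske iron-sulfur protein that takes electrons from ubiquinol, read 4723 in knockout and 12619 in wild-type cells. This is 2.67-fold lower by its only probe set. Uqcrq, a small subunit, was 2.35-fold lower by its brightest probe set (6999 against 16476), but 2 dim ones were at -0.069 and 0.87. Uqcrb, another small subunit, read 66396 and 124297, a log2 ratio of -0.90, with its dim second probe set at 0.14. Uqcr10 likewise went from -0.54 by its brightest to 0.68 and 0.81 by dim probe sets. The core proteins Uqcrc1 and Uqcrc2 were at -0.17 and -0.47, and the remaining small subunits Uqcrh and Uqcr11 at -0.26 and -0.24. Without probe sets of shared sequence, the median over 6 genes of complex III was -0.15. Of the assembly factors, Uqcc2, needed to make cytochrome b, was at -0.85 (3624 against 6539), and Uqcc3 at -0.12. Uqcc1, the partner of Uqcc2, was at -0.26 by its brightest probe set and at 1.08 by the other, past 2-fold the other way.

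Complex IV had 16 measured subunits, of which 14 were negative, with a median log2 ratio of -0.53. The median was -0.25 after quantile and -0.23 after loess normalization, with 13 negative in each. Cox5a, a subunit facing the matrix, had the most repeated evidence of any gene past 2-fold. It read 42930.3 in knockout and 91251 in wild-type cells by its brightest probe set, 18087 and 46998 by the second, and 11155 and 25191 by the third. All 3 were lower in the knockout, with log2 ratios of -1.09, -1.38 and -1.18. After loess normalization, however, the brightest was at -0.57. Cox5b, the other nuclear subunit of the matrix side, had 4 bright probe sets between -0.92 and -0.77 and a dim one at 0.98. Cox6a1 read 83187 and 139581 (-0.75), and its second probe set was at -0.78.

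Complex IV subunits with tissue-restricted isoforms allowed a comparison of the ratios within each pair. Cox6b2, known as the testis form of subunit 6b, was 2.86-fold higher in the knockout, with 4686 against 1637, by its only probe set. The widely expressed form Cox6b1 read 13018 and 18016, at -0.47, and its second probe set was at -0.49. Cox4i1 was at -0.57 (21467 against 31881), and Cox4i2, a form known from lung, was near the floor with 330 and 609, at least 1.54-fold lower. The muscle form Cox6a2 was at -0.0084, with 1212 and 1219. Cox7a2 and the supercomplex factor Cox7a2l were at -0.58 and -0.23, while the mean signal of the muscle form Cox7a1 did not reach the floor. Cox8a was at -0.49 by its brightest probe set and at -1.12 by its other measured probe set (3850 against 8372). The testis form Cox8c was at -0.62 with 1464 against 2253. Ndufa4, now counted as a subunit of complex IV, was at -0.56. Its paralog Ndufa4l2, known to be induced by hypoxia, read 675 against 142, at least 1.71-fold higher. In the deposited values Cox6b2 and Ndufa4l2 were the only measured complex IV subunit genes above the wild type.

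The factors that assemble complex IV ranged from -1.32 to 0.51, with a median log2 ratio of -0.41 over 8 genes. The lowest were Cox19, Cox11 and Cox17. Cox19, an intermembrane space protein that takes part in copper delivery, read 636 in knockout and 1584 in wild-type cells, 2.49-fold lower. Cox11, which places copper in the active site, read 1532 and 3111, 2.03-fold lower and just inside the limit. Cox17, the copper chaperone at the start of that delivery, was at -0.81 (10510.0 against 18379). Sco1 and Sco2, which pass copper to the enzyme and lie outside the naming rule, were at -0.036 and 0.036. Cox10 and Cox15, the enzymes of heme A synthesis, were at 0.29 and 0.51 by their brightest probe sets. By the mean of their probe sets they were at -0.041 and -0.11. Both measured Cox10 probe sets were positive, at 0.29 and 0.17. The Cox10 mean also took in a probe set with a mean signal below the floor (18 against 476). The 4 measured Cox15 probe sets ranged from -0.74 to 0.51. Cox20 and Cox18, which handle a mitochondrially encoded core subunit, were at -0.48 and -0.33, and Cox16 was at 0.24.

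In ATP synthase none of the 17 measured subunits passed 2-fold, yet 16 had negative ratios, with a median log2 ratio of -0.44. Atp5a1, Atp5b and Atp5c1, the alpha, beta and gamma subunits of the catalytic head, were at -0.44, -0.55 and -0.67. The head and central stalk (5 genes) had a median of -0.55 and the membrane part with the outer stalk (12 genes) one of -0.36, a division made after the values were seen. Atp5j, the coupling factor of the outer stalk, was lowest at -0.88 with 6480 in knockout and 11906 in wild-type cells. The 3 genes that encode the same mature ring subunit differed in ratio, with Atp5g3 at -0.86 (35962 against 65483), Atp5g1 at -0.49 and Atp5g2 at -0.14. Atp5l, a subunit at the dimer interface, was the only one above the wild type in the deposited values, at 0.11. Atp5h, an outer stalk subunit and the brightest of the group, read 49106 and 73084 (-0.57). Atp5c1 had a second probe set that read 1790 against 451, at 1.99 and so opposite to its bright one. The median of ATP synthase was -0.15 after quantile and -0.14 after loess normalization, with 14 genes negative in each.

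Ubiquinone synthesis held the lowest ratio of the set and also 1 of the 2 genes past 2-fold on the higher side. Coq7, which hydroxylates the ring in the next to last step, read 392 in knockout and 2129 in wild-type cells, at least 5.40-fold lower. Coq4, a component of the synthesis complex, read 534 and 1158, 2.17-fold lower. Coq6, another ring hydroxylase, was at -0.90 (838 against 1562) and passed 2-fold after quantile and loess normalization, at -1.01 and -1.004. Coq8a, an atypical kinase of the pathway, was 2.31-fold higher with 1153 against 499.5. Its second probe set, with a mean below the floor, read 99 against 486. Coq9, the lipid-binding partner of Coq7, was at -0.13.

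The other genes of ubiquinone synthesis were not counted at 2-fold. Pdss2, which makes the isoprenoid tail, was at -0.013 and Coq2, which joins the tail to the ring, at -0.077. The methyltransferase gene Coq5 was at -0.33, while Coq3, the other methyltransferase gene, read 674 against 262 and was at least 1.71-fold higher. With the floor at the lower quartile Coq3 was at 1.36, past 2-fold. Coq8b, the relative of Coq8a, was at -0.26, and the lipid-binding proteins Coq10a and Coq10b were at -0.52 and 0.052. The median over the 12 genes was -0.19. Each of Coq7, Coq4 and Coq6 was read by a single measured probe set.

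**Figure D3:**
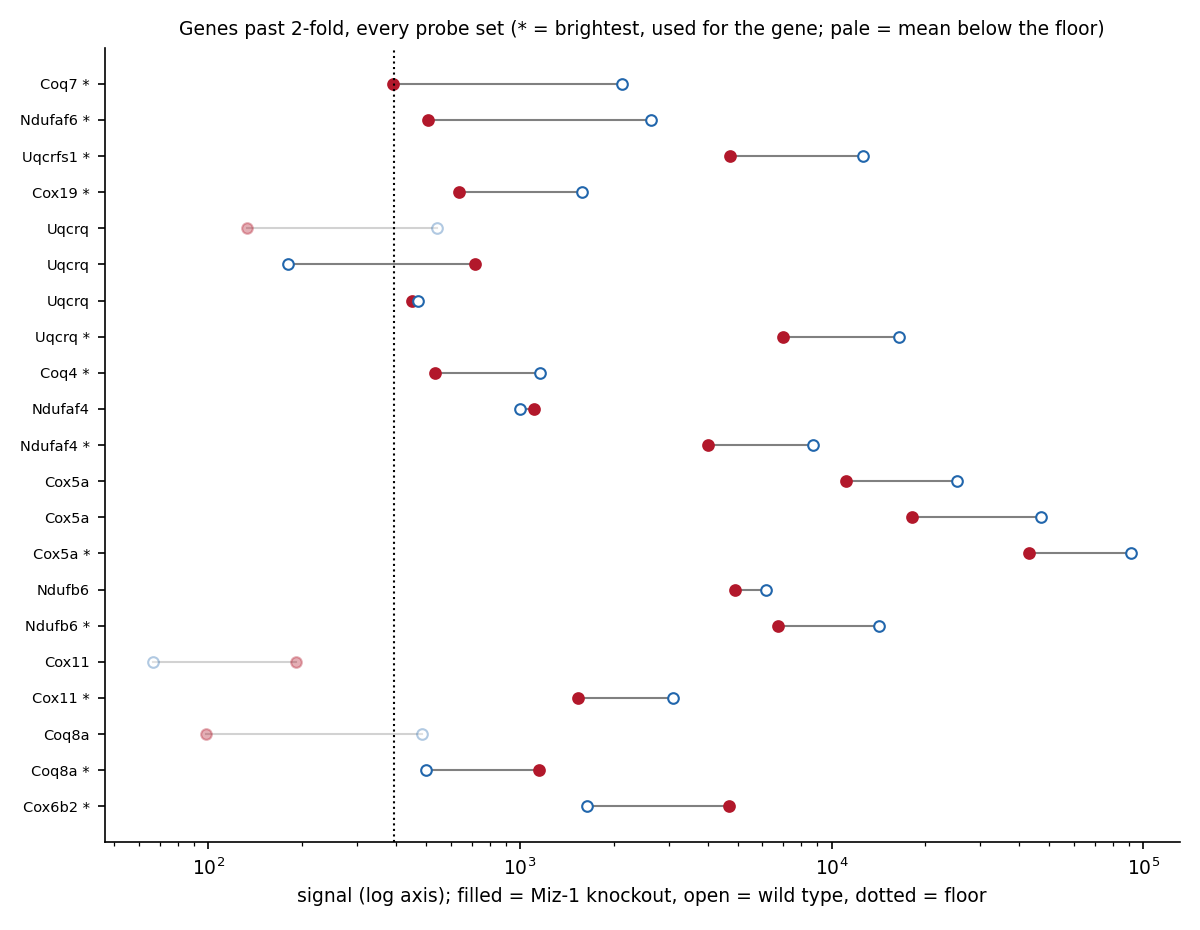
Signal on a log axis for every probe set of the 12 genes past 2-fold, knockout as filled and wild type as open circles, joined by a line; a star marks the probe set used for the gene. All 3 Cox5a probe sets are lower in the knockout, whereas probe sets of Uqcrq and Ndufaf4 differ in direction.

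Of the 12 genes past 2-fold, 6 stayed past it in the same direction under all 8 alternatives of scaling, floor and probe set choice. These were Coq7, Ndufaf6, Uqcrfs1, Cox19 and Coq4, lower, and Cox6b2, higher, and each of the 6 has a single probe set. Their log2 ratios therefore have no second reading on the arrays. With 1 probe set each, the mean of probe sets and the removal of shared sequence had to return the same values, and updated symbols did. Median centring moved them by only 0.00021. The counts out of 8 therefore do not rank these 6 above genes with several probe sets, such as Cox5a. Cox5a stayed past 2-fold in 6 of 8, Uqcrq and Coq8a in 7, Cox11 in 7, Ndufaf4 in 6 and Ndufb6 in 4. Over genes of the set with several measured probe sets, 28 of 54 had only negative ratios, 1 had only positive ratios and 25 had both signs. Over all 4514 such genes on the arrays, 1049 had only negative ratios, 1113 had only positive ratios and 2352 had both signs.

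Probe sets whose names mark possible shared sequence made up 94 of the 194 measured ones. They were brighter, with a median signal of 9297, and had a median log2 ratio of -0.55 with 82 negative. The other 100 had a median signal of 2840 and a median log2 ratio of -0.25, with 68 negative. Whether cross-hybridisation or brightness accounts for that gap was not tested.

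**Figure D4:**
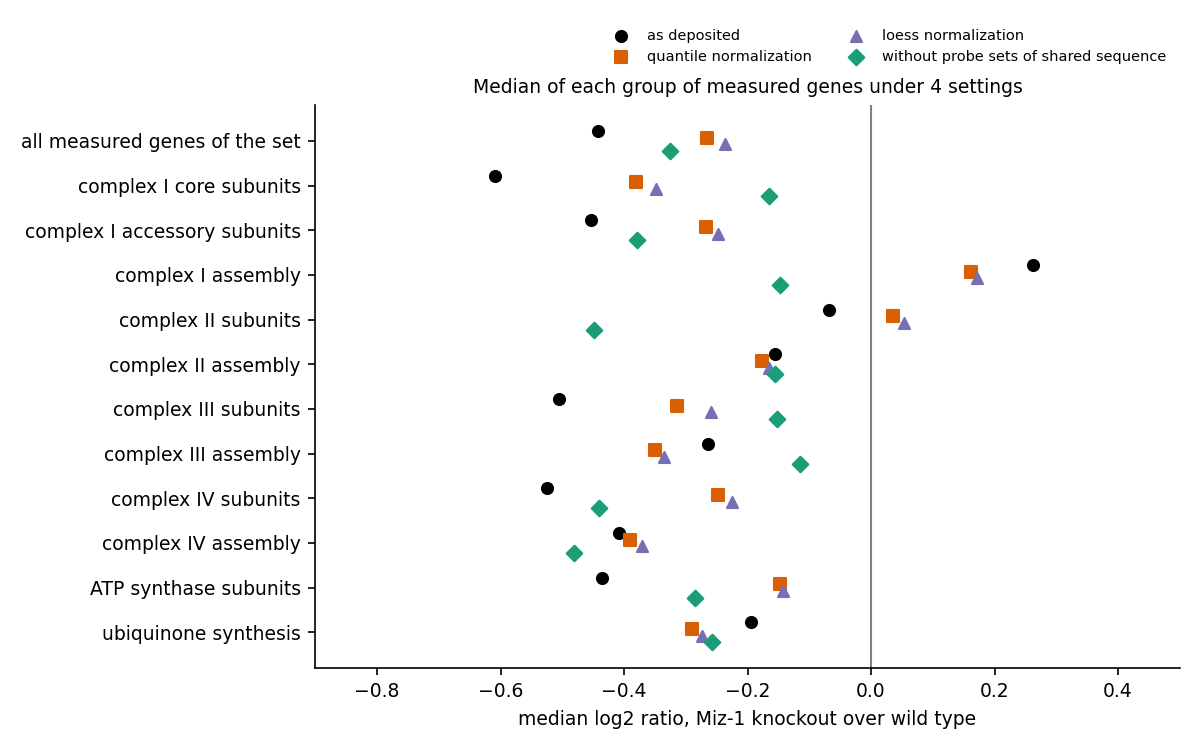
Median log2 ratio (horizontal axis) of the whole set and of each role group under 4 settings: as deposited, quantile, loess, and without probe sets of shared sequence. The median of the whole set stays between -0.44 and -0.24, and complex I assembly and complex II change sign.

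Promoters were examined because many of these genes lay to the same side and because factors known to control them have short binding motifs. Promoter sequences from RefSeq (GRCm38.p6) were matched by gene identifier for 97 of the 117 genes, and the 250 bases before each start were searched on both strands. CCGGAAG, the motif of ETS factors such as GABP, was found in 20 of the 97 genes (20.6%), against 7.83% of all 27025 genes with a promoter. GCGCNTGCG, the core motif of nuclear respiratory factor 1 (NRF1), was found in 18 (18.6%, against 5.88%). The YY1 motif AAGATGGCG was found in 1, Atp5j (1.03%, against 0.710%). ATCGGTAAT, letters of an element reported for Miz-1, was found in none of the 97 and in 0.0259% of all genes. The shares over all genes cover every gene with a promoter, whether or not it was measured on these arrays. No matches of different motifs overlapped in these promoters. The ETS and NRF1 motifs were both held by 4 genes, Atp5h, Atp5l, Cox6a1 and Sdhd.

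Measured genes with the NRF1 motif had a median log2 ratio of -0.45 (17 genes) and those without it one of -0.42 (75 genes). For the ETS motif the medians were -0.12 with it (20 genes) and -0.48 without (72 genes). All these medians are of the deposited values, and the groups with and without a motif were not matched for signal. Of the genes past 2-fold, 3 held a motif in this window, and their sequences are given 5′ to 3′ on the gene's strand, with the motif in capitals, to show the site beside the ratio. Ndufaf4 (2.16-fold lower) holds the NRF1 motif with its first letter 113 bases before the start, at chr4:24897833-24898082 on the plus strand. Coq8a (2.31-fold higher) holds its reverse complement 215 bases before the start, at chr1:180196021-180196270 on the minus strand. Ndufb6 (2.10-fold lower) holds the reverse complement of the ETS motif 232 bases before the start, at chr4:40279422-40279671 on the minus strand.
Ndufaf4: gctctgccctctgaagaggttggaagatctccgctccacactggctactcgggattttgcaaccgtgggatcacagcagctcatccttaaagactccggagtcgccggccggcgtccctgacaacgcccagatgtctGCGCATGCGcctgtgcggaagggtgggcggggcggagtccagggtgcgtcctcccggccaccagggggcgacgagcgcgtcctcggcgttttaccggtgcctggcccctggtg
Coq8a: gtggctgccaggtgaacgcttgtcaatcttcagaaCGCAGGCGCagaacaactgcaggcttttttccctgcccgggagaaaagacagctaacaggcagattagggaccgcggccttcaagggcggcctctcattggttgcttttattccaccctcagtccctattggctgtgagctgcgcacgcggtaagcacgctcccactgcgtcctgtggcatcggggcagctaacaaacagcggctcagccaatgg
Ndufb6: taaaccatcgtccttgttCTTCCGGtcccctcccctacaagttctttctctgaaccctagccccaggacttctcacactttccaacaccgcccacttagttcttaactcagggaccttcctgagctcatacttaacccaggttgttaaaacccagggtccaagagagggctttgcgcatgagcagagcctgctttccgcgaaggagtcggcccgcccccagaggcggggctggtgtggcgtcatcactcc

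Other genes of the pathway lay to the same side in part. Of 9 measured electron carriers and quinone reductases, 2 were more than 2-fold lower and none higher, with a median log2 ratio of -0.51. The shares over all measured genes were 5.65% lower and 7.23% higher, here and for the lists that follow, and these lists are too short to read against them. Cycs, which encodes cytochrome c, the carrier between complexes III and IV, read 20745 in knockout and 49996 in wild-type cells, 2.41-fold lower. Its 3 measured probe sets ranged from -1.30 to -0.999. Cyc1, the cytochrome c1 subunit of complex III, lies outside the naming rule and was at -0.97 (16451 against 32213). Etfa, of the flavoprotein that brings in electrons from fatty acid oxidation, was 2.06-fold lower, while its partner Etfb was at 0.10.

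Of 16 measured citric acid cycle and pyruvate dehydrogenase genes, 15 were negative, with a median log2 ratio of -0.38. Mdh2, malate dehydrogenase, was 2.20-fold lower (25911 against 56924) and Suclg1, a subunit of succinyl-CoA ligase, was 2.19-fold lower. Assembly factors outside the naming rule showed little shift, with a median of -0.11 over 26 genes. The exception past 2-fold was Atpif1, the inhibitor that blocks ATP synthase from running backwards, at 6000 against 18241, 3.04-fold lower, with its other measured probe set at 0.11.

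Regulators of mitochondrial gene expression had a median log2 ratio of -0.46 over 16 measured genes. Ppargc1b, a coactivator of respiratory genes, was 2.26-fold lower, with 1442 against 3261. Mterf1a, of the mitochondrial transcription termination factors, was at least 2.09-fold higher. Tfam, which packages and transcribes mitochondrial DNA, was at -0.52, Gabpa at -0.45 and Nrf1 at -0.18. The related coactivator gene Ppargc1a was below the floor on both arrays. None of the 13 listed mitochondrially encoded genes was among the named probe sets, and they were not analysed here.

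Markers of the labelled stage were present: Ptcra read 11518 and 7513 and Il2ra 23018 and 4992 in the knockout and the wild type. Of 13 measured, 11 were higher in the knockout and 2 lower (Rag1 at -0.40 and Thy1 at -0.23), with a median log2 ratio of 0.62. Dtx1, Il2ra, Cd3g and Cd3d, 4 of the 13, were more than 2-fold higher (30.8%, against 7.23% of all measured genes). None was 2-fold lower. Of 5 genes of cells outside the gate, Cd4 was below the floor on both arrays. Cd44 (331 and 424) and Cd8b1 (37 and 679) had means below it but passed it in the wild type. The other two were dim, with Kit at 825 and 749 and Cd8a at 541 and 497. Of 10 myeloid markers 7 were below the floor and 2, Lyz2 and Csf1r, were at least 2-fold higher, and the sum of the 10 was 5948 in knockout and 2797 in wild-type cells. B cell markers summed to 15715 and 31388 over 6 genes, of which 5 were measured, and most of both sums was Ighm (11340 against 28208). Ighm was 2.49-fold lower, with its 5 measured probe sets from -1.31 to 0.54, and Cd22 was at least 2.02-fold lower. The other 3 measured went the other way, with Cd79b at 0.90, Cd79a at 0.78 and Ms4a1 at 0.54. Pax5 was below the floor. Of 5 natural killer and innate lymphoid markers 3 were measured, and the sum of the 5 was 7239 against 3673. Nkg7 was 2.40-fold higher and Prf1 was at 0.86, while Klrd1 was at least 1.73-fold lower (232 against 683). No gene of the erythroid, stromal or dendritic lists was counted at 2-fold. The proliferation marker Mki67 was 2.93-fold lower in the knockout (6470 against 18940). Xist was bright on the knockout array alone (55300.0 against 423), so the animals differed in sex as well as in genotype. How far these differences contributed to the ratios was not tested. Because each array read RNA of a sorted population, less of these transcripts per cell and fewer cells rich in them cannot be told apart. Both arrays were also scaled to 1 mean, so the ratios are relative to the total signal of each array.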

How the data were processed

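Biotin-labelled cRNA was made from 200 ng of TRIzol-prepared RNA, per the labels' protocols. The authors deposited a linear signal intensity for each probe set. GCOS 1.4 is named in the submitters' processing notes, with settings not given in the sources used here. With 2% trimmed from both ends, each array averages 1000, which shows scaling before deposit. Detection calls were not analysed here. Of 45101 probe sets, 64 control probe sets were left out.

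Gene names came from the platform annotation, and symbols updated by gene identifier through RefSeq changed no result. Values were computed in Python 3.11.15 with pandas 2.3.3 and statsmodels 0.14.6 (loess span 0.3), checked on simulated arrays. Named are all genes past 2-fold, the highest, lowest and brightest of each role group, isoform sets, genes next to the 2-fold limit, genes with another measured probe set past 2-fold the other way, and pathway genes past 2-fold; other genes were added after their values were seen. The set, lists and thresholds were chosen with earlier results of these data known. The number of arrays limits the precision.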

Additional observations from a re-analysis of the deposited data

How the results depend on the processing

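No result was tested, since each genotype has 1 array, and noise between animals is unmeasured. Under median centring, updated symbols, no filter on low values and the floor at the 60th percentile, 10 genes were 2-fold lower and 2 higher. Of all genes, 5.65% were lower and 7.23% higher under median centring and under updated symbols. Those shares were 3.34% and 4.28% with no filter, and 4.76% and 5.55% at the 60th percentile. The median of the set lay between -0.45 and -0.41. In these settings the medians that moved by over 1.5 times were that of ubiquinone synthesis (-0.29 at the 60th percentile) and that of complex I assembly (0.13 with no filter). The median of the whole set was -0.27, -0.24 and -0.33 under quantile, under loess and without probe sets of shared sequence. Under quantile normalization, medians were -0.38 for complex I core and -0.27 for accessory subunits, 0.16 for complex I assembly, -0.31 for complex III, 0.035 for complex II, -0.25 for complex IV subunits and -0.15 for ATP synthase. Under loess they were -0.35 for complex I core and -0.25 for accessory subunits, 0.17 for complex I assembly, 0.054 for complex II, -0.26 for complex III, -0.23 for complex IV subunits and -0.14 for ATP synthase. Without probe sets of shared sequence they were -0.17 for complex I core subunits, -0.15 for complex I assembly, -0.45 for complex II, -0.15 for complex III, -0.12 for complex III assembly and -0.29 for ATP synthase. With the mean of probe sets they were -0.24 for complex II, -0.068 for complex II assembly and -0.12 for complex III assembly, and with the floor at the lower quartile 0.075 for complex I assembly. With only genes of at least 4 times the floor, the median of complex I assembly was -0.38 (3 genes). That of complex II assembly was -0.31 and that of complex IV assembly -0.64 (4 genes). In that range 6 genes were 2-fold lower and 1 higher, against 5.38% and 4.55% of all genes that bright. The count of genes 2-fold higher was 4 with the floor at the lower quartile. It was 1 with the mean of probe sets and 4 without probe sets of shared sequence. Over all genes the shares 2-fold higher were 16.7%, 5.46% and 7.44% in those settings. The cause of these changes was not tested. No paired analysis was possible because each genotype has 1 array and the values come from no test.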
